A study of Mus musculus with 8 samples.

Results

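The retinoic acid receptor genes Rara, Rarb and Rarg, the cellular retinoic acid binding protein genes Crabp1 and Crabp2, and the retinoic acid response gene Stra8 were examined in the posterior part of Cdx2 null mutant and wild type mouse embryos. Every non-control probe carrying one of these 6 gene names was taken, which gave 10 of the 41174 non-control probes, under 6 of the 27827 gene names on the array: 1 probe each for Rara, Crabp1, Crabp2 and Stra8, 2 for Rarb and 4 for Rarg.

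Messenger RNA of both genotypes was compared on 2-colour Agilent arrays that cover the mouse genome. The groups were Cdx2 null mutants at 4/5 somites and at 7/8 somites, and wild type embryos at each of those stages, all of the strain C57Bl6J/CBA. The tissue reached from the last somite boundary to the base of the allantois, and RNA came from pools of 20 embryos, so that 1 null pool was set against 1 wild type pool at each stage. Sample titles carry bio1 on arrays 1 and 2 of a stage and tech1 on arrays 3 and 4, and the design text speaks of dye swaps and technical replicates. The 4 arrays were taken as repeats of the same 2 pools, with the null pool in Cy3 on arrays 1 and 3 and in Cy5 on arrays 2 and 4. Arrays 1 and 2 of each stage lay on 1 slide, and arrays 3 and 4 on the other. The sources used here do not give the construction of the null allele, and a pool of 20 embryos hides differences between embryos. Cdx2 itself, the gene of the caudal homeodomain factor, was lower in null pools on all 8 arrays, with log2 ratios of -1.61 to -1.10.

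Retinoic acid is made from retinol by successive oxidation steps and diffuses into neighbouring cells, where small cytosolic binding proteins carry it either towards degradation or towards the nucleus. There it binds retinoic acid receptors, which sit on DNA as dimers with retinoid X receptors. These dimers repress their targets without ligand and activate them with it. In the caudal embryo the somites and the anterior presomitic mesoderm produce retinoic acid, and the tail bud degrades it. The boundary between both zones moves back as the axis grows. Rarb and Stra8 are widely used as readouts of the signal, because retinoic acid raises their transcription.

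The sequences that tie these genes to the ligand are those of retinoic acid response elements, direct repeats of a short half-site to which the receptor dimer binds. The promoter windows of RefSeq (assembly GRCm38.p6, 250 bases before to 50 after each gene start) held 9 windows of 5 of the 6 genes. Each was searched on both strands for the direct repeats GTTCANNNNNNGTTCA, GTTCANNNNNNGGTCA, GGTCANNNNNNGTTCA and GGTCANNNNNNGGTCA, in which hexamer half-sites are 5 bases apart. The forms with 2 bases between hexamers, GTTCANNNGTTCA, GTTCANNNGGTCA, GGTCANNNGTTCA and GGTCANNNGGTCA, were searched in the same way, and so were the caudal motifs TTTATG and TTTATT, which resemble the letters bound by Cdx proteins. Repeats of both spacings can overlap each other and the caudal motifs, and each kind was counted on its own. Rarb was the 1 member with a match, to the repeat with 5 bases between hexamers, 52 to 37 bases before its gene start. Of all 32851 windows, 0.247% held such a repeat, 0.399% one with 2 bases, and 27.6% a caudal motif. The 250 bases before the Rarb start lie at chr14:16575477-16575726 on the minus strand. They are shown 5′ to 3′ because they carry the element through which the gene answers to its ligand, with the matched letters in capitals.
Rarb promoter: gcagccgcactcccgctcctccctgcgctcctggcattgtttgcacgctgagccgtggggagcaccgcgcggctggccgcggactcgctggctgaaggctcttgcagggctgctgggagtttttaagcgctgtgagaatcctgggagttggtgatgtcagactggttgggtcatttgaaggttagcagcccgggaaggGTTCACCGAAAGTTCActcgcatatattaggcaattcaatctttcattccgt

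Of the 20 other pathway genes with a window (33 windows, of 27 genes listed), Cyp26a1, which encodes the main enzyme degrading retinoic acid in the tail bud, was the 1 gene with a match. It had the same form of the repeat, 32 to 17 bases before its start and on the strand opposite to the gene, at chr19:37697776-37697791. Both repeats are set side by side 5′ to 3′, since the 2 genes moved in opposite directions in null pools. Capitals mark the letters fixed in the search, which leave out the first base of each hexamer.
Rarb repeat: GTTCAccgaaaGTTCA
Cyp26a1 repeat: GTTCAcccaaaGTTCA

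A match is a run of letters and not a measured site, and its absence says only that these letters are not in the window. Repeats with 5 bases between hexamers stood in windows of 73 gene symbols, of which 18 had a probe kept by the signal limit described next. Of these 18, 4 were higher and 2 lower in null pools by the test used here, beside 5.65% higher and 3.68% lower of 15305 gene names. The higher 4 were Rarb, Dmd, Serpinf2 and Prl2c5, and the lower 2 were Cyp26a1 and Trim2. Dmd, Serpinf2, Prl2c5 and Trim2 were picked out with their values known, and Rarb and Cyp26a1 had been chosen beforehand with earlier results known. Prl2c5 had ratios of 0.04 at 4/5 somites and 1.22 at 7/8 somites. Whether genes with the repeat differ from other genes was not tested.

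The sequences of 4 of the member probes are shown, and of these only the Crabp1 probe passed the test used here. Crabp1 is the probe behind the largest decrease among the members, and Rara the gene not well above background. The probes of Rarb and Rarg shown here cross a gap in the genome, as a probe on spliced transcripts does. They are not the called probes of these 2 genes. Their positions are those of the array files, on build mm9. The Crabp1 probe lies at chr9:54616192-54616251 on the plus strand and the Rara probe at chr11:98831859-98831918 on the plus strand. The Rarb probe reaches over 26709 bases at chr14:17381032-17407740 and the Rarg probe over 2641 bases at chr15:102066621-102069261, both on the minus strand.
Crabp1 A_52_P185907: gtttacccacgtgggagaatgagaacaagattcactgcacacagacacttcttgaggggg
Rara A_51_P389724: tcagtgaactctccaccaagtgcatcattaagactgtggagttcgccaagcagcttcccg
Rarb A_52_P495759: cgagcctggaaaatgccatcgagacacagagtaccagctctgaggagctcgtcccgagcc
Rarg A_51_P372858: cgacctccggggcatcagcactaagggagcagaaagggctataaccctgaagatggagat

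Values below are log2 ratios, null over wild type, after background correction and loess normalization within each array. A probe was kept for testing when the scanner marked it as well above background for 1 of the genotypes on 3 or 4 arrays of a single stage. That held for 7 of the 10 member probes, covering 5 of the 6 genes, and for 21907 probes in all. Arrays of a stage were taken to repeat the same pools, so their ratios were averaged, and limma's moderated test ran on 2 values per probe, 1 per stage, with Benjamini-Hochberg adjustment over all 21907 probes and a threshold of 0.05. The p-values therefore measure a spread between the pools of 2 stages, taken mostly from all kept probes together. A probe's own spread gave 1 degree of freedom, and the spread shared over all kept probes gave 14.9. SDs of 4 arrays are technical on this reading of the labels. Within a stage there was no test. In pooled tissue, fewer cells of a type and less RNA per cell cannot be told apart.

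Of the 7 kept member probes, 5 passed the test, 1 for each of Rarb, Rarg, Crabp1, Crabp2 and Stra8, where 8.42% of all kept probes did. Rarb, Crabp2 and Stra8 were higher in null pools (3 probes, beside 4.94% of all kept probes), and Crabp1 and 1 of 4 Rarg probes were lower (2 probes, beside 3.48%). The 5 probes also had 1 sign on all 8 arrays, as did 18.6% of kept probes. The share of all probes called depended on single arrays: 1845 were called in all, against 942 and 1062 without array 2 or 4 of 4/5 somites and 964 and 1090 without array 2 or 4 of 7/8 somites. No member reached a 2-fold difference with 1 sign on all arrays of a stage, a size that 0.292% of kept probes had at 4/5 somites and 0.415% at 7/8 somites.

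**Figure D1:**
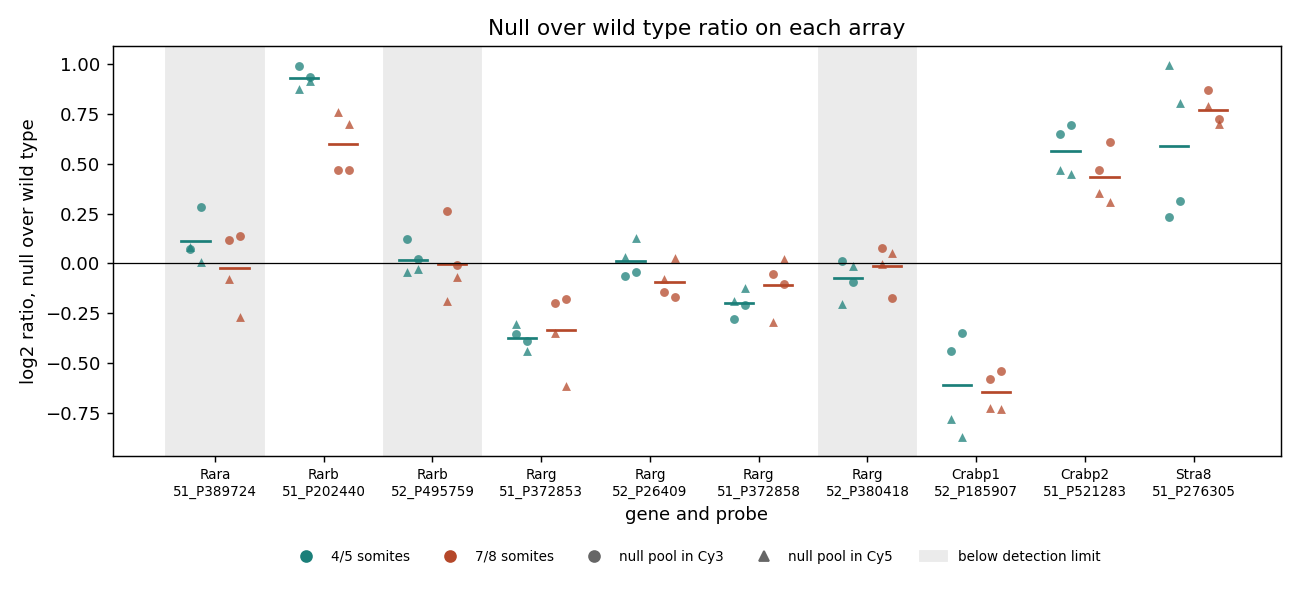
Log2 ratio, null over wild type, of each member probe (x axis) on each array, in green at 4/5 somites and in orange at 7/8 somites, with lines at the mean of 4 arrays, circles for arrays with the null pool in Cy3 and triangles for Cy5. Grey bands mark the 3 probes below the signal limit, and the Rarb, Crabp2 and Stra8 probes outside them lie above 0 on all 8 arrays.

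Rarb encodes a receptor whose own gene is induced by retinoic acid. On its bright probe, A_51_P202440 (chr14:17263511-17263570, minus strand, printed at 10 spots per array), the log2 ratios at 4/5 somites were 0.99, 0.87, 0.94 and 0.92 on arrays 1 to 4. The ratios at 7/8 somites were 0.47, 0.76, 0.47 and 0.70. Null pools were higher on every array, and the lowest ratio of the earlier stage stood above the highest of the later one. The mean over both stages was 0.77 ± 0.09 (SE), or 1.70-fold, with a 95% confidence interval of 0.57 to 0.97 and a limma adjusted p of 5.42e-05. By size it ranked 154 of 21907 probes.

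The channel levels behind these ratios are log2 signals, comparable across arrays for 1 probe but not between probes. The Rarb level was 9.53, 9.61, 9.56 and 9.55 in the null pool at 4/5 somites, against 8.54, 8.73, 8.62 and 8.63 in the wild type pool. On the later arrays it was 8.98, 9.20, 9.06 and 9.14 in the null pool, against 8.51, 8.44, 8.59 and 8.44 in the wild type pool. The genotypes did not overlap at either stage. The null pool of the later stage lay 0.47 below that of the earlier stage with no overlap of arrays, whereas the wild type pools differed by -0.14 and overlapped. Rarb was the 1 kept member probe of 7 whose ratios did not overlap between stages, a pattern shown by 18.3% of kept probes. The mean ratio was 0.33 lower at 7/8 somites, by 0.50 on arrays with the null pool in Cy3 and by 0.16 on those with it in Cy5. A stage difference of 2-fold without overlap occurred in 0.0639% of kept probes and in 0 member probes.

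Within an array the 10 Rarb spots had SDs of 0.05 to 0.15, and the scanner marked 1 to 3 of them as outliers on 3 of the 8 arrays. The second Rarb probe, A_52_P495759, is described in the array files as part of the coding sequence of the isoform RAR-beta 4 and crosses the gap shown above. It was well above background in 0 of 16 channels, and its mean ratios were 0.02 ± 0.08 at 4/5 somites and -0.00 ± 0.19 at 7/8 somites (SD of 4 arrays). It entered no test.

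Rara, which encodes the most widely expressed receptor in most tissues, had a single probe. It was well above background in 0 of 16 channels, with mean ratios of 0.11 ± 0.12 at 4/5 somites and -0.02 ± 0.19 at 7/8 somites, and entered no test. A low signal on 1 probe does not show that the transcript was missing.

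Rarg encodes the receptor known for its expression in the caudal end of the embryo. Its probe A_51_P372853 (chr15:102066309-102066368, minus strand) had ratios of -0.35, -0.31, -0.39 and -0.44 on arrays 1 to 4 at 4/5 somites. At 7/8 somites they were -0.20, -0.35, -0.18 and -0.61. All 8 ratios were below 0, and the later stage held both the smallest and the largest decrease. The mean was -0.35 ± 0.08 (SE), 1.28-fold lower in null pools, with an interval of -0.53 to -0.17 and a limma adjusted p of 0.0143. Levels averaged 7.26 ± 0.15 in null pools and 7.63 ± 0.18 in wild type pools at 4/5 somites, and 7.44 ± 0.33 in null pools and 7.77 ± 0.48 in wild type pools at 7/8 somites, where the genotypes overlapped. The call was lost without array 2 or array 4 of 7/8 somites (limma adjusted p of 0.0534 and 0.0873) and under 5 other settings, whereas on the scanner's own processed signals the ratio was -0.63.

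None of the 3 other Rarg probes was called. The probe across the gap, A_51_P372858, averaged -0.15 ± 0.09 (SE, limma adjusted p of 0.335), with 7 of 8 arrays below 0, and was well above background in 6 of 16 channels. At 4/5 somites it was so in 0 of 4 null and 1 of 4 wild type channels, so no fold is given for that stage. On the scanner's own processed signals its ratio was -0.74 with a limma adjusted p of 0.00539. A_52_P26409 (chr15:102072411-102072470), taken from a transcript that the array files name as the 5′ end of RAR-gamma 3, averaged -0.04 ± 0.09 with an interval of -0.22 to 0.14 and a limma adjusted p of 0.875, and was well above background in 15 of 16 channels. Its neighbour A_52_P380418 was well above background in 2 of 16 channels and was not tested. The call for Rarg therefore rests on 1 of its 4 probes, and whether the probes differ from each other was not tested.

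**Figure D2:**
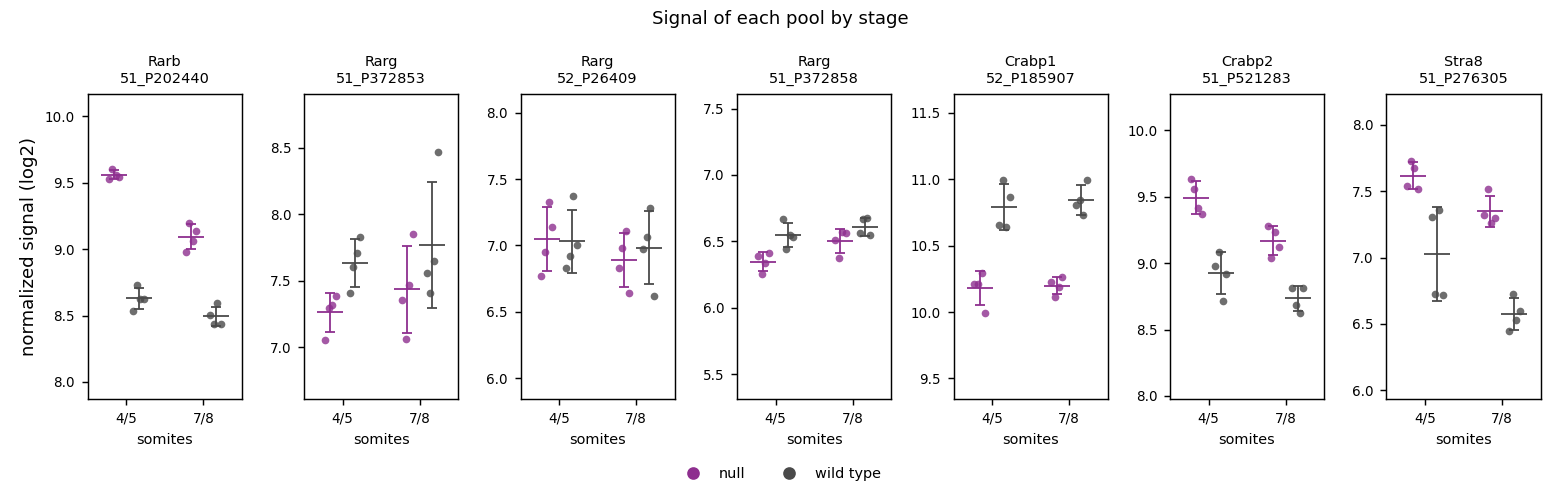
Log2 normalized signal (y axis) of the 7 kept member probes at each stage (x axis), for the null pool in purple and the wild type pool in grey, with points for the 4 arrays and bars for mean and SD. Each panel has its own axis of the same length, since levels are not comparable between probes, and the Rarb panel shows the null pool above the wild type pool at both stages.

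The 2 binding proteins moved in opposite directions. Crabp1, whose protein binds retinoic acid in the cytosol and is linked to its breakdown, had ratios of -0.44, -0.78, -0.35 and -0.87 on arrays 1 to 4 at 4/5 somites. Those at 7/8 somites were -0.58, -0.73, -0.54 and -0.73. Every array was lower for the null pool, and at each stage the arrays with that pool in Cy5 gave the larger decrease. The mean was -0.63 ± 0.08 (SE), 1.55-fold lower, with an interval of -0.81 to -0.45 and a limma adjusted p of 0.000136. Split by dye, the mean at 4/5 somites was -0.39 with the null pool in Cy3 and -0.83 with it in Cy5, and at 7/8 somites -0.56 and -0.73. Levels were 10.18 ± 0.13 in null pools and 10.79 ± 0.17 in wild type pools at 4/5 somites. They were 10.20 ± 0.06 in null pools and 10.84 ± 0.11 in wild type pools at 7/8 somites. The genotypes did not overlap at either stage, and the level of each genotype overlapped between stages.

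Crabp2, whose protein passes retinoic acid to the nuclear receptors and whose gene retinoic acid induces, had ratios of 0.65, 0.47, 0.70 and 0.45 at 4/5 somites on its probe at chr3:87752682-87752741. At 7/8 somites they were 0.47, 0.35, 0.61 and 0.31. All arrays were higher for the null pool, and the stages overlapped. The mean was 0.50 ± 0.09 (SE), 1.42-fold higher, with an interval of 0.32 to 0.68 and a limma adjusted p of 0.00124. Levels were 9.49 ± 0.12 in null pools and 8.93 ± 0.16 in wild type pools at 4/5 somites, and 9.17 ± 0.11 in null pools and 8.73 ± 0.10 in wild type pools at 7/8 somites. Null pools of the later stage lay 0.32 below those of the earlier stage without overlap, and wild type pools 0.19 below with overlap.

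Stra8 encodes a protein needed for entry into meiosis in germ cells, and was first found as a gene induced by retinoic acid. Its probe (chr6:34889231-34889290, plus strand) had ratios of 0.23, 1.0, 0.31 and 0.80 on arrays 1 to 4 at 4/5 somites. At 7/8 somites they were 0.87, 0.79, 0.73 and 0.70. The null pool was higher on all 8 arrays, but at 4/5 somites the arrays fell apart by dye, 0.27 with the null pool in Cy3 and 0.90 with it in Cy5, and at 7/8 somites they did not (0.80 and 0.75). The mean was 0.68 ± 0.09 (SE), 1.60-fold higher, with an interval of 0.50 to 0.87 and a limma adjusted p of 8.86e-05. On arrays with the null pool in Cy3 alone it was 0.54 and missed the threshold (limma adjusted p of 0.0528).

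The Stra8 level was 7.54, 7.72, 7.68 and 7.52 in the null pool at 4/5 somites, against 7.30, 6.73, 7.36 and 6.72 in the wild type pool. On the arrays of 7/8 somites it was 7.32, 7.52, 7.26 and 7.30 in the null pool, against 6.44, 6.73, 6.53 and 6.60 in the wild type pool. Genotypes did not overlap at either stage, although at 4/5 somites the lowest null value and the highest wild type value came close. The wild type channel was well above background on 3 of 4 arrays at each stage and the null channel on all, so the wild type level is near the limit of the measurement. On the scanner's own processed signals, which subtract background without an offset, the ratio was 1.53. Genotype levels did not overlap for 6 of the 7 kept member probes at 4/5 somites and for 4 at 7/8 somites. Rarb, Crabp1, Crabp2 and Stra8 showed this at both stages. Rarg A_51_P372853 and the uncalled Rarg probe A_51_P372858 showed it at 4/5 somites only. Such lack of overlap was not counted over all kept probes, so no share stands beside it.

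Between stages the null level did not overlap for 3 of the 7 kept member probes, Rarb, Crabp2 and Stra8, each lower at 7/8 somites, and 20.4% of kept probes had null levels without overlap. The wild type level overlapped between stages for all 7, where 18.6% of kept probes did not overlap. For Stra8 both outcomes were narrow. Its lowest null level at 4/5 somites was 7.519 and its highest at 7/8 somites 7.517. Its lowest wild type level at 4/5 somites was 6.715 and its highest at 7/8 somites 6.726. The 3 genes higher in null pools had null levels that were lower at the later stage by 0.47, 0.32 and 0.27 on the log2 scale, beside differences of -0.14, -0.19 and -0.45 in wild type pools. These differences compare single pools and were not tested.

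**Figure D3:**
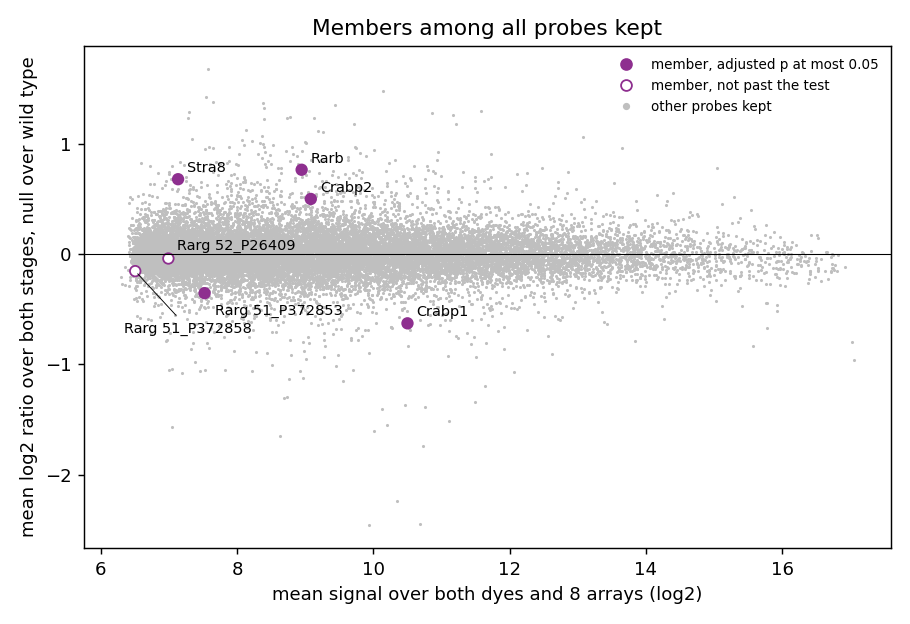
Mean log2 ratio over both stages, null over wild type (y axis), against mean log2 signal over both dyes and 8 arrays (x axis), for all 21907 kept probes in grey and the 7 kept member probes in purple, filled where the probe passed the test. Rarb, Stra8 and Crabp2 lie above most probes of like brightness, Crabp1 below, and the 2 open Rarg points lie at -0.04 and -0.15.

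Around these genes, 27 others of the pathway were counted by their brightest kept probe. Of 24 kept, 7 were higher in null pools and 3 lower, where the same rule called 5.65% of 15305 gene names higher and 3.68% lower. The list had a median log2 ratio of 0.12 beside -0.01 over all kept probes. Among enzymes of retinoid metabolism 3 of 6 were higher and 1 lower. Aldh1a2, which makes retinoic acid in the mesoderm, had a ratio of 1.06 and Rdh10, which oxidizes retinol, 0.54. Of the degrading enzymes Cyp26a1 was lower (-0.82) and Cyp26b1 higher (0.33). Aldh1a1 and Dhrs3 did not pass the test, at 0.06 and -0.16.

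In retinol transport, Rbp4, the carrier in plasma, and Stra6, its membrane receptor, stood at 0.09 and 0.02 and did not pass. Of the partner receptors 2 of 3 were higher. Rxra was at 0.32 on its brightest probe, while its other probe gave -0.08. Rxrg had a ratio of 0.20 at 4/5 somites and 0.85 at 7/8 somites, with a mean of 0.52. Rxrb, at -0.22, did not pass.

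Of 6 coregulators, 0 were higher in limma's test (3 at an unadjusted p under 0.05) and 1 was lower, the corepressor Ncor1 at -0.32, and its other kept probes ranged from -0.33 to 0.03. Nrip1, a corepressor that receptors recruit with ligand bound, stood at 0.27 on its brightest probe (limma adjusted p of 0.0738), but its 2 other kept probes were higher in null pools, at 0.53 and 0.29 (limma adjusted p of 0.0013 and 0.042). Among 7 kept genes known as targets of retinoic acid, 2 were higher, the homeobox genes Meis1 at 0.57 and Meis2 at 0.60. Hoxd4, also a homeobox gene, was lower at -1.16. Hoxb1, Cdx1, Nr2f2 and Tgm2 did not pass, and Cdx1, a paralogue of Cdx2, had ratios of -0.36 at 4/5 somites and 0.40 at 7/8 somites. Nr2f1 and Aldh1a3 were below the signal limit, and no probe carried the name Cyp26c1.

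**Figure D4:**
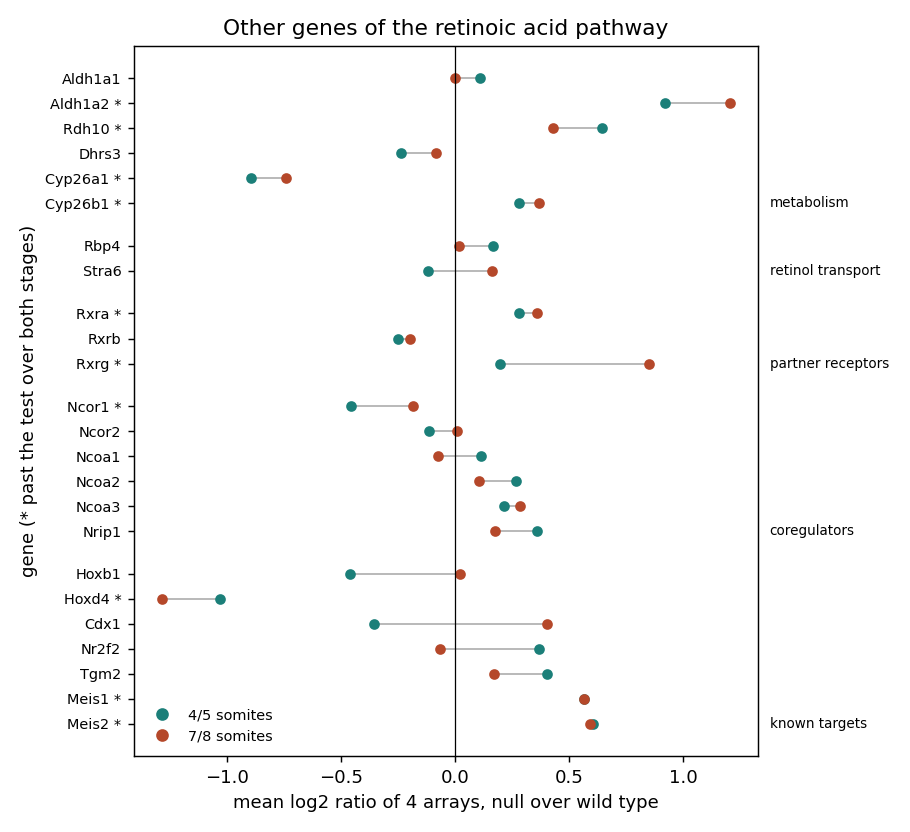
Mean log2 ratio of 4 arrays, null over wild type (x axis), of the 24 kept pathway genes (y axis, by list), at 4/5 somites in green and at 7/8 somites in orange. Aldh1a2 lies furthest to the right and Hoxd4 furthest to the left, and asterisks mark the 10 genes that passed the test over both stages.

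Some marker genes of cells that the dissected tissue could hold differed between genotypes, and others did not. The part of such cells in the values above was not tested. Of 5 somite markers 4 were kept and 3 were higher in null pools, Meox1 at 0.92, Tcf15 at 0.59 and Foxc2 at 0.49, while Uncx stood at -0.03 and Pax1 was not detected (below the signal limit). Their summed linear signal was 3957 to 4286 in null pools against 1995 to 2050 in wild type pools at 4/5 somites. At 7/8 somites it was 2490 to 2865 in null pools against 2229 to 2374 in wild type pools. Sums of this kind, here and below, follow the brightest probes of a list and are not amounts of a cell type. The median ratio of the kept somite markers was 0.96 at the earlier stage and 0.12 at the later one. Of 6 visceral endoderm markers 4 were higher, Cubn at 1.18, Amn at 0.97, Apoe at 0.96 and Apoa1 at 0.31. Ttr, at 0.15, did not pass, nor did Afp, which had ratios of 0.48 at 4/5 somites and -0.82 at 7/8 somites. Their sum was 33386 to 36711 in null pools against 19039 to 20305 in wild type pools at 4/5 somites, and 21056 to 21512 in null pools against 12366 to 13450 in wild type pools at 7/8 somites.

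Beside Stra8 stand the germ cell markers, since that gene is known from germ cells. Of 6, 4 were kept and 2 were higher, Dppa3 at 0.84 and Ddx4 at 0.31, while Dnd1 and Prdm1 stood at 0.01 and 0.10 and Dazl and Nanos3 were not detected. Their sum was 813 to 899 in null pools against 656 to 710 in wild type pools at 4/5 somites, and 893 to 995 in null pools against 696 to 769 in wild type pools at 7/8 somites. Of 4 trophoblast markers 3 were kept and 2 were higher, Prl3d1 at 0.58 and Elf5 at 0.52, while Ascl2 stood at -0.11 and Tpbpa was not detected. Their sum was 603 to 696 in null pools against 467 to 544 in wild type pools at 4/5 somites, and 732 to 813 in null pools against 495 to 587 in wild type pools at 7/8 somites.

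Beside Crabp1 and Rarg stand the markers of neural tissue and of the caudal end, where these genes are known to be expressed. Of 5 neural tube markers 3 were kept, and limma called 0 of them, also at an unadjusted p under 0.05, with Sox2 at 0.18, Sox1 at -0.04 and Pax6 at 0.07, Pax3 not detected and no probe named Sox3. Their sum was 778 to 903 in null pools against 706 to 758 in wild type pools at 4/5 somites, and 906 to 986 in null pools against 878 to 963 in wild type pools at 7/8 somites. Of 2 hindbrain markers Hoxa2 stood at -0.01 and did not pass, and Egr2 was not detected. The signal of Hoxa2 was 309.6 to 356 in null pools against 315 to 417 in wild type pools at 4/5 somites, and 349.8 to 402 in null pools against 332 to 365 in wild type pools at 7/8 somites. Of 3 neural crest markers 1 was kept and higher, Sox10 at 0.37, with Foxd3 not detected, no probe named Tfap2a, and a signal of 153 to 213 in null pools against 91.3 to 144 in wild type pools at 4/5 somites, and 142 to 182 in null pools against 126 to 173 in wild type pools at 7/8 somites. All 5 markers of the primitive streak and tail bud, which the dissected tissue should hold, were kept, and Msgn1 was lower at -0.60. The other 4 did not pass, with T at -0.34, Tbx6 at -0.16, Fgf8 at -0.16 and Wnt3a at 0.13. At an unadjusted limma p under 0.05, 2 of the 5 were lower. The median ratio of the 5 was -0.45 at 4/5 somites and 0.10 at 7/8 somites. The sum of the 5 was 18768 to 20056 in null pools against 23908 to 27047 in wild type pools at 4/5 somites. At 7/8 somites it was 23505 to 25081 in null pools against 20764 to 24481 in wild type pools.

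The genes most like each called member were those with the smallest root mean square difference over the 16 channel levels, each gene centred on its own mean, among 11314 named genes. For Rarb, whose own spread was 0.42 on that scale, they were Srgn at 0.11, Cdo1 at 0.11 and Clstn2 at 0.11, with ratios of 0.70, 0.70 and 0.81. For Crabp2 (own spread 0.30) they were Ptges at 0.08, Plcd1 at 0.09 and Rab11fip5 at 0.09, and for Stra8 (0.43) Bicc1 at 0.11, Ankrd6 at 0.14 and Col14a1 at 0.16. For Crabp1 (0.33) they were Gng2 at 0.12, Krt86 at 0.12 and AU020206 at 0.13. For Rarg (0.33) the nearest, 1110006O24Rik, Foxq1 and Ifitm5, were at 0.20, 0.20 and 0.20, so its pattern had no close match on this measure. The 16 levels share 4 pools and 8 arrays, and likeness describes these libraries only.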

How the data were processed

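Each of 8 arrays carried a null and a wild type pool. The deposited scanner files hold spot and local background intensity, not normalized, per the file headers. The deposited processed signals are background-subtracted, dye-normalized intensity, and the deposited log ratios and series matrix are log10 values, per the file headers. The matrix equalled the scanner's ratio at 45018 of 45018 spots on each array (tolerance 1e-05) once turned to null over wild type, and every column's median was 0. Agilent Feature Extraction is given as version 9.5.3 in the submitters' processing notes and as 10.5.1.1 in the file header. The number of arrays limits precision, and 46.5% to 58.9% of probes per channel were well above background. Ratios of arrays of 1 stage correlated at 0.856 to 0.918 within a dye order and at 0.477 to 0.516 across dye orders, and those of different stages at 0.498 to 0.591 within a dye order and at 0.235 to 0.307 across.

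Mean signals underwent normexp background correction with an offset of 50 and then loess within arrays, both in limma 3.58.1 (R 4.3.3). The 159 spots with an uneven local background got the median background of their array, since on array 1 of 4/5 somites the ratios had an SD of 0.151 without this step and 0.257 with it. Outlier spots (0.341%) and control spots were left out, and spots of a probe were averaged. The log2 ratios were computed from the deposited intensity values, and channel levels followed Aquantile normalization. Genes were named by every probe of the 6 members, by the list genes' brightest kept probe, and by the 3 nearest genes of each called member. The members, all lists and the step for uneven backgrounds were chosen with earlier results of these data known. Some list genes are not reported here and entered no list count. Alternatives changed background correction, normalization, ratio source, signal limit, outliers, probe choice, slide, dye order and single arrays. The test was tested on simulated data, where it recovered changed probes but, with 1 residual degree of freedom, could call more unchanged probes than its threshold allows.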

Additional observations from a re-analysis of the deposited data

How the results depend on the processing

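Rarb, Crabp1 and Crabp2 kept their direction and their call in 22 of 22 alternatives, with ranges of 0.68 to 0.87, -0.78 to -0.48 and 0.40 to 0.61 and limma adjusted p of at most 0.0463, 0.0296 and 0.0498. These alternatives reuse the same pools and are not separate checks. The scanner's processed signals and the series matrix gave the same ratios. Settings of the signal limit and of probe choice changed the test but not the ratio of a probe. Stra8 kept its call in 21 of 22 and missed it on arrays with the null pool in Cy3 only (0.54), with a range of 0.44 to 1.53. Rarg A_51_P372853 kept its direction in 22 of 22 and its call in 15, with a range of -0.63 (the scanner's processed signals) to -0.27. It was lost with no background correction (-0.27), with the local background kept at uneven spots (-0.31), with median centring in place of loess (-0.30), with no filter on dim probes (-0.35) and with the null pool in Cy3 only (-0.28), and leaving out 1 array gave -0.38 to -0.31. The cause was not tested. The number of probes called was 1845, and became 345 with no background correction, 812 with the local background kept, 765 with median centring, 664 with no filter and 13861 with the slide as a block, which leaves only technical spread; leaving out 1 array gave 942 to 2168. With median centring 78.3% of called probes were higher in null pools, against 58.6% with loess. With 2 values per probe the estimated prior degrees of freedom ranged from 3.87 to 47.3 over these alternatives, against 14.9 as reported, so the number of calls is poorly fixed. No paired analysis was possible by array number across the stages, because array numbers only name technical repeats. Within each array the log2 ratio already pairs 1 null pool with 1 wild type pool, so the tested ratios were paired by array. Dim probes (Rara, 1 of Rarb, 1 of Rarg) were limited by signal over background.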
